A study of Homo sapiens with 3 samples.

Results

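Wide H3K27ac regions that held no CREBBP peak were examined in SC1, a human lymphoma cell line labelled as diffuse large B-cell lymphoma (DLBCL). A region belonged to this set when it was at least 2000 bp wide on chromosomes 1 to 22 or X and shared not even 1 bp with a CREBBP peak. Of 18263 H3K27ac regions, 5244 were that wide, and 1458 of these held no CREBBP peak. That is 27.8% of the wide regions (exact Clopper-Pearson 95% interval 26.6 to 29.0%). The other 3786 wide regions held at least 1 CREBBP peak and served as the comparison. The peak-free regions covered 4.30 Mb, which is 22.0% of the length of all wide regions and 12.6% of all H3K27ac-covered length.

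The lists come from chromatin immunoprecipitation followed by sequencing (ChIP-seq) with an antibody to CREBBP and with an antibody to H3K27ac. A library without antibody was also made and was not analysed here. The labels name the cell line and the antibodies, and give no treatment, genotype or time for any of the 3 samples. The names of the peaks include "DMSO" and "rep2", and no label says what these stand for. Each antibody has 1 sample of 1 cell line, so no value has a replicate error and no difference between cultures was tested.

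CREBBP, also called CBP, is a transcriptional coactivator. Sequence-specific transcription factors recruit it to enhancers and promoters, where its acetyltransferase domain and that of its close relative EP300 acetylate lysine 27 of histone H3, among other residues. H3K27ac marks active enhancers and promoters, and wide H3K27ac regions often lie at strongly transcribed genes and at genes of cell identity. In germinal-centre B-cell lymphomas CREBBP is recurrently mutated, and loss of its activity is linked to lower H3K27ac at enhancers. A wide acetylated region without a CREBBP peak is thus a stretch where the mark was called and the enzyme was not. A missing call is no measurement that the protein was absent.

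The regions were selected on their H3K27ac width and on the absence of a CREBBP peak, so the values of both lists are given as descriptions and no test was made. Having no CREBBP peak was common in the H3K27ac list, and more so in narrow regions. Of all 18263 H3K27ac regions 51.0% held no CREBBP peak, and of the 13019 regions under 2000 bp 60.4% held none. The choice also rests on a CREBBP list without a limit on q, the p-value corrected by the peak caller for multiple tests. When CREBBP peaks had to reach q = 0.05 or lower, 4093 of the 5244 wide regions (78.1%) held none.

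The share of regions without a CREBBP peak was lower in each wider class. It was 37.6% (684 of 1821, 95% interval 35.3 to 39.8%) at 2 to 2.5 kb and 32.5% (307 of 945, 29.5 to 35.6%) at 2.5 to 3 kb. At 3 to 4 kb it was 26.1% (279 of 1069, 23.5 to 28.8%) and at 4 to 5 kb 19.6% (101 of 516, 16.2 to 23.3%). The rule asks for no peak anywhere in a region, so a longer region has more places at which to fail it. From 5 to 7.5 kb the share was 11.9% (70 of 588), and from 7.5 to 10 kb it was 7.32% (12 of 164). Only 5 of the 141 regions of 10 kb or more had no CREBBP peak, 3.55% (1.16 to 8.08%). Counted over all regions of a class, CREBBP peaks per kb of H3K27ac went from 0.333 at 2 to 2.5 kb to 0.222 at 10 kb or more. The widest regions thus held a peak most often while having the fewest per kb.

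**Figure D1:**
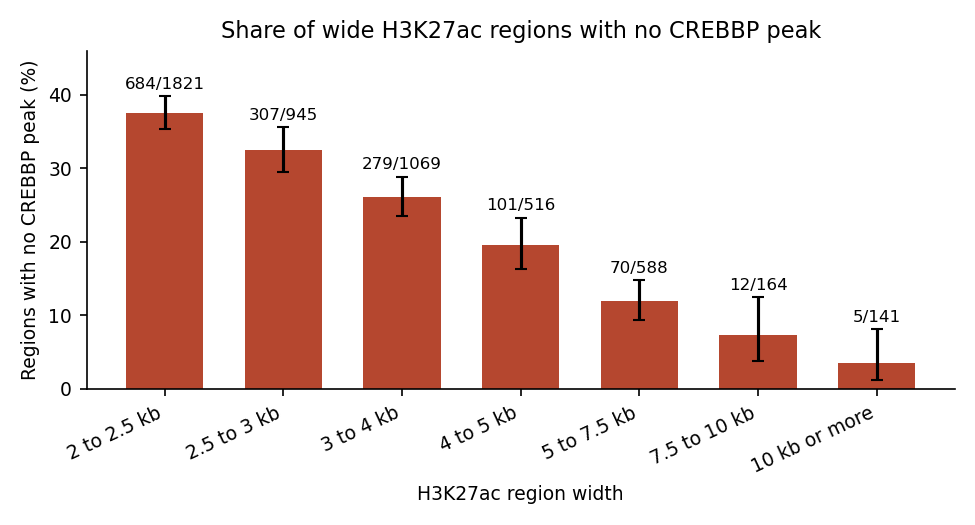
Percent of wide H3K27ac regions with no CREBBP peak (vertical axis) in 7 classes of region width (horizontal axis). Bars are shares, lines are exact 95% intervals, and the numbers give regions without a peak over all regions, from 684 of 1821 at 2 to 2.5 kb to 5 of 141 at 10 kb or more.

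The peak-free regions were therefore mostly near the lower width limit. Their width had a median of 2563 bp and quartiles of 2211 and 3235 bp. Wide regions with a CREBBP peak had a median of 3119 bp and quartiles of 2371 and 4626 bp. Under 3 kb lay 991 of them, 68.0%, and 87 were 5 kb or wider. At the limit itself, the 3 narrowest were 2000, 2000 and 2001 bp wide, on chromosomes 5, 7 and 6, with H3K27ac folds of 2.95, 1.34 and 2.498. The 3 peak-free regions just under the limit measured 1999, 1999 and 1998 bp, on chromosomes 4, 19 and 2, with folds of 2.61, 3.45 and 6.79. Between 1900 and 2000 bp 43.6% of regions held no CREBBP peak, and between 2000 and 2100 bp 40.8% did, so for this share the limit cuts through a gradual range. The median fold of peak-free regions was 4.47 between 1900 and 2000 bp and 5.61 between 2000 and 2100 bp, a difference that was not tested.

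The strength of the mark was close in regions without and with a CREBBP peak. H3K27ac fold, the authors' ratio of ChIP signal to expected background, had a median of 5.19 in the peak-free regions (interquartile range 3.53 to 7.82) and 5.35 in the wide regions with a peak (3.65 to 7.83). The 95% intervals of these medians, from the binomial order of the ranked values, were 5.02 to 5.41 and 5.23 to 5.48 and overlapped. Over all 18263 regions the median was 4.92. The peak-free regions with q at or under 0.05 numbered 1456 of 1458. Median −log10 q was 39.3 without and 41.6 with a CREBBP peak.

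Width classes gave the same picture, with small differences in both directions. At 2 to 2.5 kb the median fold was 5.41 without and 5.15 with a CREBBP peak, a ratio of 1.05. At 3 to 4 kb it was 4.87 and 5.14, a ratio of 0.947, and at 4 to 5 kb it was 4.99 and 5.40, a ratio of 0.924. The peak-free median was the lower one in 5 of 7 classes, those between 2.5 and 10 kb, and the 95% intervals of the medians overlapped in all 7. Over all regions of 3000 bp or wider the ratio was 0.924. Read the other way, the share of regions without a CREBBP peak showed no steady course over deciles of H3K27ac fold. It was 31.0% (27.1 to 35.2%) in the lowest decile, with a median fold of 2.34. It was 23.9% (20.3 to 27.7%) in the sixth, with a median of 5.71, and 30.1% (26.2 to 34.2%) in the highest, with a median of 14.0. The lowest and highest deciles also held narrower regions, with median widths of 2662 and 2682 bp against 3121.5 bp in the sixth.

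**Figure D2:**
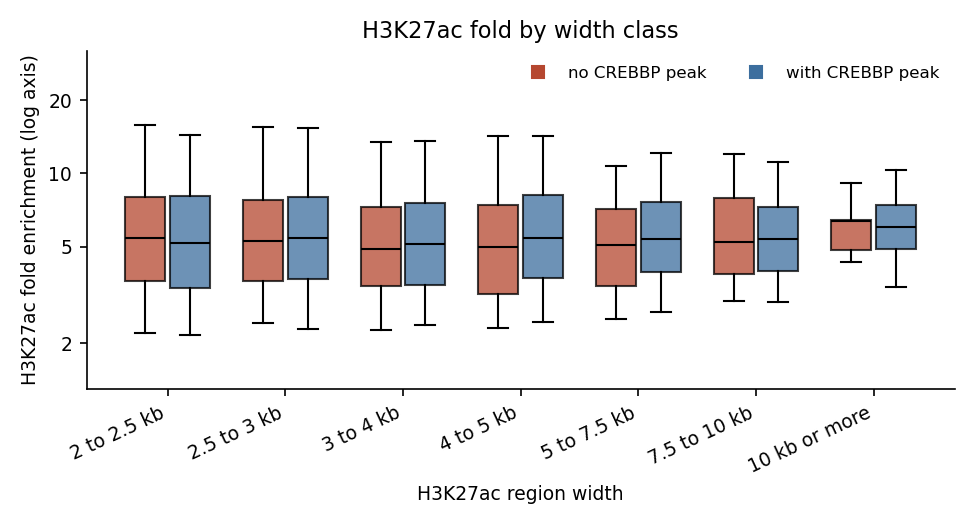
H3K27ac fold enrichment (vertical axis, log scale) in 7 classes of region width (horizontal axis), for regions without a CREBBP peak (red) and with one (blue). Boxes span the quartiles with the median as a line, and whiskers run from the 5th to the 95th percentile of regions; the boxes overlap in every class, and the red box at 10 kb or more rests on 5 regions.

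Some of the most strongly marked regions were among those without a CREBBP peak. A fold of 20 or more was found in 16 of the 1458 (1.10%, 95% interval 0.629 to 1.78%) and in 37 of the 3786 wide regions with a peak (0.977%, 0.689 to 1.34%). The top fold was 40.6, in a region of 2898 bp on chromosome 10 from 104935325 to 104938222. Its nearest CREBBP peak lay 2.87 kb away and the next on the other side 14.5 kb away. For comparison, the largest fold of any wide region with a CREBBP peak was 32.4. By fold, the strongest peak-free region therefore stood above every wide region that held a CREBBP peak. By −log10 q the order was the other way, with a maximum of 581.1 without and 741.4 with a CREBBP peak.

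The next in order were 2203 bp on chromosome X from 48774787 to 48776989 with a fold of 29.3, and 2247 bp on chromosome 2 from 60617557 to 60619803 with a fold of 28.6. Then came a region of 3298 bp on chromosome 3 from 16413396 to 16416693 (fold 28.3) and one of 2203 bp on chromosome 1 from 158149142 to 158151344 (fold 27.4). Ranks 6 to 10 were on chromosome 9 from 6007155 to 6009156 (fold 24.96), chromosome X from 53709701 to 53713890 (24.8), chromosome 22 from 22390843 to 22393066 (23.8), chromosome 17 from 26925030 to 26927058 (23.7) and chromosome 2 from 166428681 to 166431750 (23.2). These 10 were short, from 2002 to 4190 bp. Their nearest CREBBP peaks lay between 1.24 and 8.38 kb away, and none of those peaks had a q of at most 0.05. Over all 1458 regions the nearest peak lay a median of 6800 bp away. Of the 10, only the region on chromosome 22 was farther from its nearest peak than that. Such a q was found for 8.37% of the nearest peaks of all 1458, so finding none among 10 does not set these apart.

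At the other end, 34 peak-free regions (2.33%) had a fold under 2, as did 2.17% of wide regions with a peak. The smallest fold was 1.34, at chromosome 17 from 79484458 to 79486468 and at chromosome 7 from 84921428 to 84923427. Their −log10 q values were 1.08 and 0.836, the only 2 that missed a q of 0.05. Folds of 1.45, 1.51 and 1.52 followed, at chromosome 12 from 32687190 to 32690187, chromosome 10 from 116256578 to 116258749 and chromosome 16 from 22483159 to 22485424. Across the 1458 regions, width and fold had a Spearman rho of -0.038, and fold and the distance to CREBBP a rho of -0.023. These describe regions of 1 library, which are not replicates.

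In the full list, CREBBP peaks were seldom far away. The nearest one lay a median of 6800 bp from the edge of a peak-free region (quartiles 4186 and 10937 bp). The nearest peak wholly outside a wide region with a CREBBP peak was a median of 6039 bp away (quartiles 3571 and 10498 bp). Within 10 kb a CREBBP peak was called beside 1031 of the 1458 (70.7%), against 73.0% of wide regions with a peak, and within 50 kb beside 1452, against 3774 of 3786. Peaks stood within 10 kb on both sides of 328 regions (22.5%), against 25.6%. These shares were near those of the comparison set. The CREBBP-free stretch around a region, from the last peak before it to the first after it, had a median of 28905 bp (quartiles 19103 and 44847 bp). Around wide regions with a peak, the nearest outside peaks on either side were a median of 28225 bp apart. Leaving aside the peaks inside, both sets thus lay in intervals of like length. The nearness rests on the weak peaks of the list. When only CREBBP peaks of q at or under 0.05 counted, 4093 wide regions held none, their median distance was 104202 bp and the stretch around them had a median of 803289 bp.

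CREBBP peaks were sparser beside the peak-free regions, most of all close to the edges. In the band 0.5 to 1 kb from an edge they numbered 1.85 summits per 100 kb (27 summits, exact Poisson 95% interval 1.22 to 2.69), against 3.28 (124 summits, 2.72 to 3.91) beside wide regions with a CREBBP peak. From 1 to 2 kb the values were 2.61 (2.05 to 3.26) and 4.03 (3.59 to 4.51), and from 2 to 5 kb 5.32 (4.84 to 5.82) and 6.45 (6.12 to 6.79). From 5 to 10 kb they were 8.75 (8.28 to 9.25) and 9.20 (8.90 to 9.52), and from 10 to 20 kb 8.67 (8.33 to 9.01) and 8.89 (8.68 to 9.11), with overlapping intervals. From 20 to 50 kb the intervals were again apart, at 8.18 (7.996 to 8.38) and 8.73 (8.61 to 8.85), so a smaller difference was also present far from the edges. The closest 0.5 kb, with 1.92 against 5.36 per 100 kb, is partly fixed by the rule, since a peak that crosses the edge was not allowed. No other H3K27ac region can lie in the first 1 kb, because neighbouring regions in the list were at least 1029 bp apart. Beside both sets, CREBBP peaks were thus fewer in the first few kb than farther out, and the set chosen for having none inside had the fewest.

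Among regions of like width the contrast was of like size in the first 1 kb and smaller from 1 to 5 kb. Around regions of 2 to 3 kb, summits per 100 kb were 1.72 (0.999 to 2.75) without and 3.21 (2.43 to 4.16) with a CREBBP peak in the band from 0.5 to 1 kb. They were 2.88 (2.18 to 3.73) and 3.44 (2.85 to 4.10) from 1 to 2 kb, 4.89 and 5.55 from 2 to 5 kb, and 8.64 and 8.95 from 5 to 10 kb. The intervals overlapped in each of these 4 bands. In the closest 0.5 kb the values were 1.72 and 5.52, and from 20 to 50 kb 8.28 (8.05 to 8.52) and 8.63 (8.46 to 8.81), the latter with overlapping intervals. A peak between close regions counts once for each of them, and the intervals cover counting error only.

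**Figure D3:**
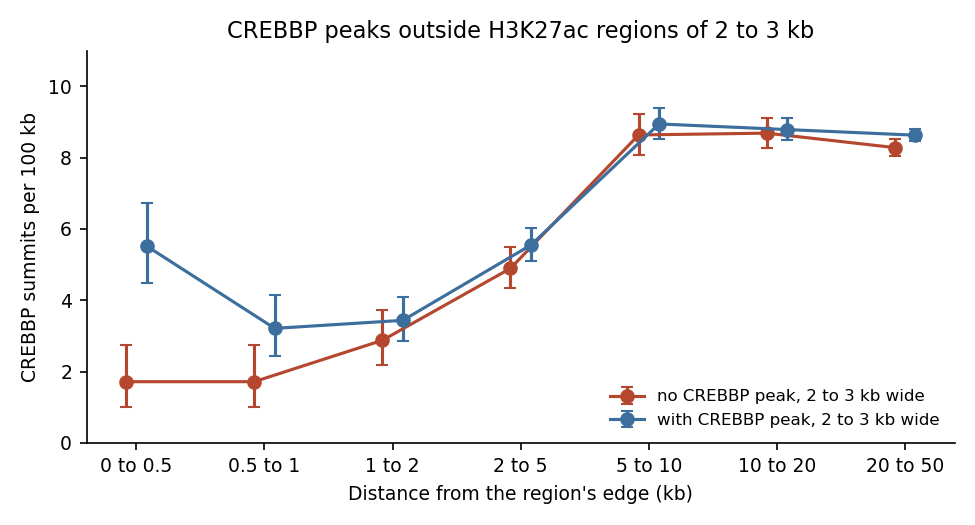
CREBBP summits per 100 kb (vertical axis) by distance from the edge of an H3K27ac region (horizontal axis, bands of unequal width), for regions of 2 to 3 kb without a CREBBP peak (red) and with one (blue). Lines through the points are exact Poisson 95% intervals; both sets stay under 6 per 100 kb up to 5 kb and reach 8.64 and 8.95 at 5 to 10 kb.

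Most CREBBP peaks nearest to peak-free regions missed a q of 0.05, and so did most of those nearest to the other wide regions. Fold and p together give the number of fragments at a summit and the background there, for 99.99% of CREBBP peaks. The nearest peak had a median of 8 fragments over a background of 2.77 without a CREBBP peak inside, and of 8 over 2.75 with one. Among the 1458 nearest peaks 122 had q at or under 0.05 (8.37%, 95% interval 6.997 to 9.91%), and beside wide regions with a peak 282 of 3786 (7.45%, 6.63 to 8.33%). Summits 20 to 50 kb from the edges had a median of 6 fragments beside both sets. Of these, 344 of 7160 and 1005 of 19836 had such a q, so the nearest peaks were no weaker than those farther out. Of the 55 summits within 1 kb of a peak-free region 0 reached this q, which allows a share of up to 5.45% (3 counts of the total). Beside regions with a peak 14 of 327 did, but 12 of them lay in the closest 0.5 kb. There the rule barred peaks that cross the edge of a peak-free region. From 0.5 to 1 kb the counts were 0 of 27 and 2 of 124, and from 1 to 2 kb 6 of 76 and 7 of 305. The peaks held by wide regions had a median of 17 fragments (quartiles 11 and 24), and the background there had a median of 6.64 (quartiles 3.695 and 10.4). The list holds no background for a region without a peak, so whether a high background hid CREBBP there was not tested.

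A few peak-free regions lay far from any CREBBP peak. The farthest was a region of 2082 bp on chromosome X from 102940981 to 102943062, with an H3K27ac fold of 14.5. CREBBP peaks lay 70.3 kb to the left and 100.4 kb to the right, and no other H3K27ac region was closer than 101 kb. The next were on chromosome 19 from 55627554 to 55629636 (61.9 kb away, fold 3.05), chromosome 8 from 145324389 to 145330285 (58.965 kb, fold 5.13), chromosome 11 from 66034942 to 66037047 (58.9 kb, fold 11.6) and chromosome 12 from 57504008 to 57506236 (54.3 kb, fold 2.95). The region on chromosome 8 was the widest of the 5, at 5897 bp, and the other 4 were under 2.3 kb. Distance from CREBBP did not go with one strength of the mark, since these 5 folds span 2.95 to 14.5.

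Others missed a CREBBP peak by a few bp. The nearest was 2 bp from the edge of a region of 3213 bp on chromosome 6 from 30849919 to 30853131. A region on chromosome 12 from 110804328 to 110807052 missed its peak by 7 bp, and one on chromosome 3 from 153477965 to 153482035 by 11 bp. Gaps of 16 and 30 bp were found on chromosome 20 from 5106639 to 5108854 and on chromosome 1 from 31895844 to 31898048. Within 0.5 kb of a CREBBP peak lay 34 of the 1458 (2.33%), so near misses were a small part of the set.

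Most peak-free regions had a CREBBP-free stretch to themselves. The 1458 lay in 1356 stretches between adjacent CREBBP peaks, and 1265 of these stretches held 1. Another 81 held 2, 9 held 3 and 1 held 4. The stretch with 4 was on chromosome 12, where regions from 32673426 to 32704238 covered 13.2 kb with folds of 1.45 to 4.04 in a stretch of 41.3 kb. A stretch of 58.2 kb on chromosome 10 held 3, from 126299670 to 126327331, covering 20.8 kb with folds of 3.28 to 6.45, the largest covered length among stretches of 3 or more. Of the 215575 gaps between adjacent CREBBP peaks 0.629% held a peak-free region, a share kept small by the number of such regions. Those gaps had a median of 7231 bp, and a gap needs at least 2000 bp to hold one. Weighted by gap length, the median was 24.97 kb.

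At a given width, peak-free regions had other H3K27ac regions nearer by. Another region lay within 12500 bp of 820 of the 1458 (56.2%, 95% interval 53.7 to 58.8%), against 55.2% (53.6 to 56.8%) of the wide regions with a CREBBP peak. The pooled values mix widths, and the median gap to the next region was smaller in most wider classes. At 2.5 to 3 kb the share was 59.0% (53.2 to 64.5%) without and 48.4% (44.5 to 52.4%) with a CREBBP peak, and the median gap to the next region was 8173 bp against 13955 bp. At 5 to 7.5 kb it was 88.6% (78.7 to 94.9%) and 68.3% (64.1 to 72.3%), and the median gap was 3532.5 bp against 5717.5 bp. The share was higher and the median gap smaller without a CREBBP peak in all 7 width classes, and the intervals of the share did not overlap in those 2. At 2 to 2.5 kb they overlapped, at 48.0% (44.2 to 51.8%) and 44.7% (41.8 to 47.6%).

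When neighbours were joined into domains, most peak-free regions with a neighbour shared the domain with a region that held a CREBBP peak. These counts use the full CREBBP list, without a limit on q. Regions within 12500 bp of each other were joined. The CREBBP peaks of a domain are those its regions held, and peaks in the gaps between its regions are not counted. Of the 820 peak-free regions in domains of several regions, 601 (73.3%, 95% interval 70.1 to 76.3%) had a CREBBP peak in another region of the domain. For wide regions with a CREBBP peak, 72.9% (70.9 to 74.8%) had one in another region as well. A CREBBP summit lay in the gap to the nearest neighbour for 92 of the 820 (11.2%), against 14.1% for wide regions with a CREBBP peak. Domains with no CREBBP peak in any of their regions held 857 of the 1458, of which 638 were alone and 219 had H3K27ac neighbours. The largest such domain by covered length was on chromosome 12 from 32673426 to 32711813, with 5 regions, 13.7 kb covered and folds of 1.45 to 5.03. It was followed by chromosome 1 from 111745429 to 111765613, with 2 regions, 12.7 kb covered and folds of 9.31 and 9.86. Among domains of at least 8 kb covered length lay 24.6% of peak-free regions and 29.8% of wide regions with a peak.

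The widest peak-free regions lay mostly among other acetylated regions that held CREBBP peaks. First was a region of 15.2 kb on chromosome 10 from 126304613 to 126319819 (fold 6.45). It had 4 CREBBP peaks elsewhere in its domain of 5 regions, the nearest 9.84 kb away. All 4 lay to its left, and the first CREBBP peak to its right was 33.2 kb away. The second spanned 12532 bp on chromosome 16 from 81859737 to 81872268, with a fold of 4.20. CREBBP peaks lay 2.51 kb to the left and 3.38 kb to the right, and its domain of 7 regions held 8. The third, of 10.4 kb, lay on chromosome 8 from 11308380 to 11318734 (fold 4.86) in a domain of 10 regions with 9 CREBBP peaks. The nearest of these peaks had 26 fragments over a background of 9.85 and a −log10 q of 1.51. Those nearest to the first and second regions had −log10 q of 0 and 0.041. Among the 10 widest, only the third and the fourth (−log10 q of 1.33) had a nearest peak of q at most 0.05. These 3 were gaps in CREBBP calls within acetylated stretches that held several.

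The fourth spanned 10.2 kb on chromosome 1 from 23899569 to 23909786, with a fold of 6.398 in a domain of 11 regions with 7 CREBBP peaks. The fifth, 10.1 kb on chromosome 1 from 111755533 to 111765613, differed from the rest. Its fold of 9.86 was the largest of the 10, and its domain of 2 regions held 0 CREBBP peaks. Ranks 6 to 10 were on chromosome 22 from 50737866 to 50747198 (9.33 kb, fold 2.83), chromosome 11 from 121315777 to 121325011 (9.24 kb, 7.74), chromosome 2 from 60577316 to 60586109 (8.79 kb, 5.20), chromosome 6 from 353308 to 362095 (8.79 kb, 3.11) and chromosome 4 from 25861046 to 25869775 (8.73 kb, 5.66). The regions of their domains held between 1 and 4 CREBBP peaks. The region on chromosome 2 had a CREBBP peak 310 bp from its right edge, the closest among the 10.

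**Figure D4:**
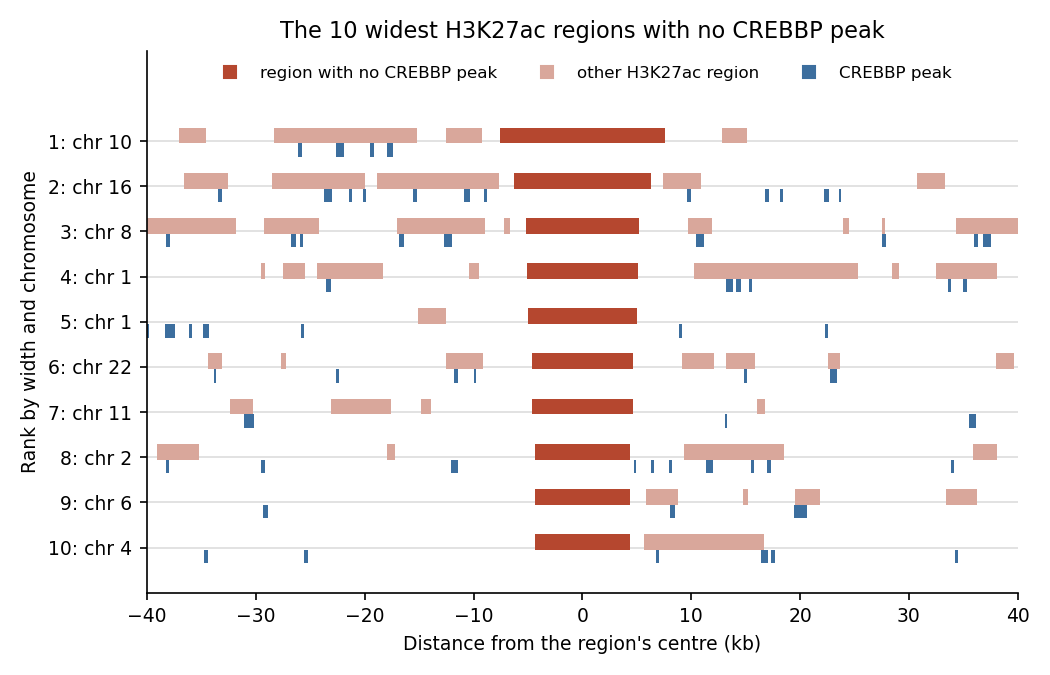
Maps of the 10 widest H3K27ac regions without a CREBBP peak, one per row and ordered by width, by distance from the region's centre (horizontal axis, kb). Dark red bars are these regions, pale bars other H3K27ac regions and blue bars CREBBP peaks; in row 2 CREBBP peaks lie 2.51 and 3.38 kb from the edges, and in row 5 the only other region shown holds none.

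Peak-free regions occurred on every chromosome examined, in shares between 17.0 and 33.6% of the wide regions. The 95% interval of the share excluded the pooled 27.8% on 3 of 23 chromosomes, each time from below. These were chromosome 13 with 18 of 106 (17.0%, 10.4 to 25.5%), chromosome 7 with 48 of 235 (20.4%, 15.5 to 26.2%) and chromosome 6 with 72 of 331 (21.8%, 17.4 to 26.6%). The highest share was on chromosome 11, with 85 of 253 (33.6%, 27.8 to 39.8%). Per Mb, they were densest on chromosome 19 at 1.51 and sparsest on chromosome 13 at 0.156, where wide regions numbered 4.63 and 0.921 per Mb. Median H3K27ac fold without a CREBBP peak was above that with one on 9 of 23 chromosomes.

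Chromosome X stood out in CREBBP density and not in this share. It had 19.4 CREBBP peaks per Mb, the lowest value, and 45 of its 147 wide regions held none (30.6%, 23.3 to 38.7%). Chromosome 7 had the most, 107.6 per Mb. Over the 23 chromosomes the share without a peak and the CREBBP density had a Pearson r of -0.33 and a Spearman rho of -0.29. With chromosomes 7 and X left out, whose densities were most distant from the median, r was -0.10. These describe chromosomes of the same pair of libraries, and the share uses the CREBBP list itself.

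**Figure D5:**
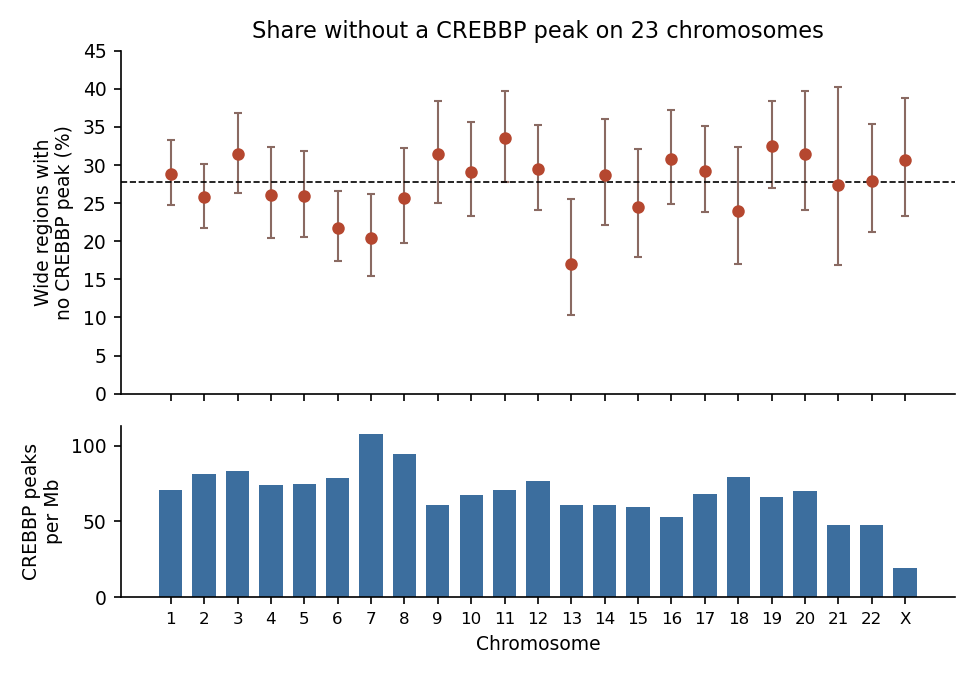
Upper panel, percent of wide H3K27ac regions without a CREBBP peak on each of 23 chromosomes, with exact 95% intervals and the pooled 27.8% as a dashed line; lower panel, CREBBP peaks per Mb. Chromosome X has the lowest CREBBP density, 19.4 per Mb, and a share of 30.6%, and the lowest share is 17.0% on chromosome 13.

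Wide regions without a CREBBP peak did not gather in long rows. The next wide region along the chromosome was also peak-free after 423 of 1451 (29.2%, 95% interval 26.8 to 31.6%). After wide regions with a CREBBP peak this was so for 1028 of 3770 (27.3%, 25.9 to 28.7%). Of 1035 runs of neighbouring peak-free regions, 728 were of 1 region and 5 were of 5 or more. The longest had 7 each, on chromosome 1 from 226910640 to 228595235, chromosome 11 from 60680932 to 61649171 and chromosome 12 from 56768650 to 57612269. They spanned 1.68, 0.968 and 0.844 Mb and had median folds of 5.34, 6.46 and 6.07. A run of 6 lay on chromosome 1 from 155277507 to 155949939, with a median fold of 3.21. A run of 5 lay on chromosome 19 from 54640192 to 55629636, with a median of 5.75. CREBBP peaks were called between the members of these runs, from 47 to 117 in each span.

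Regions with weak CREBBP peaks were closer to the peak-free ones than regions with strong peaks in width, and all 3 classes were close in the strength of the mark. Among wide regions, 2635 (50.2%) held only CREBBP peaks of q above 0.05 and 1151 (21.9%) held one of q at most 0.05. Median widths were 2563 bp without a peak, 2932 bp with weak peaks only and 3612 bp with a strong one. A wider region has more places for a peak and for a strong one, so this order is partly set by how the classes were made. Among regions of 2 to 3 kb the median widths were 2300, 2333 and 2379.5 bp. Median H3K27ac folds were 5.19, 5.30 and 5.53. Within widths of 2 to 3 kb, where 991, 1367 and 408 regions fell, the median folds were 5.35 (95% interval 5.15 to 5.69), 5.19 (4.98 to 5.41) and 5.56 (4.99 to 6.06), with no order and overlapping intervals. Their median gaps to the next H3K27ac region were 12099 bp (10848 to 13562 bp), 14584 bp (13114 to 16587 bp) and 16170.5 bp (12789 to 20839 bp), smallest without a CREBBP peak.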

How the data were processed

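The build is hg19, and the tools named per the submitters' processing notes are MACS2, Bowtie2, STAR and fastp. What each did, its version and the control library were not given in the sources used here. The authors deposited 1 list per antibody, narrow peaks for CREBBP and broad regions for H3K27ac. Each deposited list gives a fold (a ratio to expected background), −log10 p, −log10 q and a score, all the authors' own. Those of H3K27ac regions were read as region means. Depth is not stated in the lists.

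Chromosomes 1 to 22 and X were used (215598 CREBBP peaks, 18263 H3K27ac regions). Positions are on hg19, counted from 1. No hg19 sequence or annotation was used here, so regions are given by position without genes or sequences. Distances run between edges, and flank counts use summits. Fragments and background at a summit were solved from fold and p as Poisson tails, matching −log10 p within 0.001 for 215575 peaks. They are inferences.

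With 1 sample per antibody no test was run. Shares above 0 carry exact binomial (Clopper-Pearson), medians binomial order and densities exact Poisson 95% intervals; these cover counting error only and take regions as independent. The set and its comparisons were chosen with earlier results of these data known. Named are the 10 widest regions, the 10 of largest and 5 of smallest fold, the 5 farthest from and nearest to CREBBP, the 5 longest runs and 3 on either side of the width limit; other positions were chosen after their values were seen. Alternatives changed the width limit, the overlap, the CREBBP peaks and the H3K27ac regions. Code was tested on simulated data. Python 3.11.15, numpy 2.4.6, pandas 2.3.3, scipy 1.17.1 and matplotlib 3.10.9 were used.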

Additional observations from a re-analysis of the deposited data

How the results depend on the processing

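Of 61 values under the alternatives, 40 stayed within the interval of the value reported, a 95% interval except for the ratio of median fold. Values given in brackets are those reported. With a width limit of 1500 bp the share of regions without a CREBBP peak was 34.9% (27.8%), their median width 1982.5 bp (2563 bp), fold 5.02 (5.19) and distance to CREBBP 7176 bp (6800 bp), and 48.7% (56.2%) had a neighbour within 12500 bp. With 3000 bp these were 18.8%, 3706 bp, 4.98, 6198 bp and 66.6%. With the upper 50% of CREBBP peaks by p the share was 35.9%, the width 2622.5 bp, the distance 8207.5 bp and the CREBBP-free stretch 37493 bp (28905 bp). With CREBBP peaks of q at most 0.05 they were 78.1%, 2774 bp, 104202 bp and 803289 bp, as fewer CREBBP peaks leave longer gaps. With H3K27ac regions limited to the upper 50% by q the median fold was 7.34 and 41.0% had a neighbour within 12500 bp, as the set holds fewer regions of higher q. The ratio of median fold, 0.970 (regions without over with a CREBBP peak), turned to 1.01 with those regions, to 1.01 within widths of 2 to 3 kb and to 1.06 at 10 kb or more. The interval of the ratio divides the ends of the median intervals without and with a CREBBP peak by each other, and is not itself a 95% interval. That interval included 1 in each of these, and the cause was not tested. The ratio was 0.932 at 3 to 5 kb, 0.952 at 5 to 10 kb and 0.924 with a limit of 3000 bp, where the interval, 0.823 to 0.984, excluded 1. Asking for the summit or for 50% of a peak inside, or also counting peaks within 500 bp, left all 7 results within their intervals. Depth is not given, so an absent CREBBP call sets no limit on CREBBP. No paired analysis was possible because each antibody had 1 sample.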

Other observations

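The share of wide regions without a CREBBP peak was set beside the number of CREBBP summits within 50 kb of their edges. It was 31.6% (25 of 79, exact 95% interval 21.6 to 43.1%) where at most 1 summit lay there, 32.7% (161 of 492, 28.6 to 37.1%) with 2 to 3 and 29.2% (280 of 958, 26.4 to 32.2%) with 4 to 5. It was 29.7% (303 of 1021, 26.9 to 32.6%) with 6 to 7, 25.8% (322 of 1247, 23.4 to 28.3%) with 8 to 10 and 25.4% (367 of 1447, 23.1 to 27.7%) with 11 or more. The values did not fall at every step, and the intervals of neighbouring classes overlapped. The share was lower in both classes of 8 or more summits than in the others. The intervals with 2 to 3 and with 11 or more summits did not overlap. The median number was 7 around peak-free regions (interquartile range 5 to 11) and 8 (5 to 11) around wide regions with a CREBBP peak.

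In windows of 5 Mb that held at least 20 wide regions, 61 in all, the share without a CREBBP peak had a median of 31.0%. The highest was on chromosome 11 from 60 to 65 Mb, with 21 of 39 (53.8%, 37.2 to 69.9%). The lowest was on chromosome 6 from 25 to 30 Mb, with 1 of 29 (3.45%, 0.0873 to 17.8%). This stretch of the short arm carries the largest cluster of replication-dependent histone genes. Median widths of the wide regions were 2558 bp in the window on chromosome 11 and 3255 bp in that on chromosome 6, and their part in the difference was not tested. Both windows are the extremes of 61 and were chosen after their values were seen.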
